A study of Mus musculus with 89 samples.

Results

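The genes described here encode CTCF, the cohesin ring and the proteins that load and regulate it. The members were chosen by symbol from a list of 10 (Ctcf, Smc1a, Smc3, Rad21, Stag1, Stag2, Stag3, Nipbl, Pds5a and Pds5b), and all 10 were found among the 26276 named genes of the count table. RNA was sequenced from V6.5 cells, a mouse embryonic stem cell line, held in the naive state with LIF and inhibitors of MEK and GSK3. All 6 libraries carry H2afz-FKBP-V, a version of the gene for the histone variant H2A.Z.1 with a tag that lets a dTAG molecule send the protein for degradation; 3 libraries are labelled Control and 3 dTAG, and the comparison asks what depletion of H2A.Z.1 does to transcript levels. The length of dTAG treatment, the number of clones behind the tagged line and whether the libraries came from separate cultures are not given for these samples in the sources used here, so the spread that p-values are set against is that of these libraries and may be technical. Values are CPM, counts scaled to the library's total over named genes.

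Cohesin is a ring that holds stretches of DNA together. SMC1A and SMC3 form its arms, RAD21 closes it, and 1 STAG protein binds RAD21. NIPBL loads the ring and drives it along chromatin, where it extrudes loops until it meets CTCF bound at its motif. PDS5 proteins sit on the ring and act both in its release and in its protection. In embryonic stem cells the ring also binds enhancers and promoters of pluripotency genes. STAG3 is known as the STAG protein of meiosis, and its gene is a germline gene that many somatic cells keep silent.

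The promoters of 7 members were found in RefSeq (GRCm38.p6). The 250 bases before the start are shown for Stag3, the germline member, for Stag1, its somatic paralogue, and for Ctcf. Capitals mark the E-box CACGTG and the E2F-like string TCCCGC or its reverse complement GCGGGA.
Stag3: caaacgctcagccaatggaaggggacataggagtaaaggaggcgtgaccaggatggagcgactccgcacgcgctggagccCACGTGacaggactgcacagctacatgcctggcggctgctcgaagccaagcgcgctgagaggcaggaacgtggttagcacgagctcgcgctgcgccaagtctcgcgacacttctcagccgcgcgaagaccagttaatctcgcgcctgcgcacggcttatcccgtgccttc
Stag1: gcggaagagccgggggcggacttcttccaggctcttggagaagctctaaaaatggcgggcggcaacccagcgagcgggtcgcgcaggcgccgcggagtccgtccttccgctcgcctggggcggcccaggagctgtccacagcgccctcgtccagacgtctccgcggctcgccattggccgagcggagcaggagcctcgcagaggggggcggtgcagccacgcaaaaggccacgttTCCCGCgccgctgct
Ctcf: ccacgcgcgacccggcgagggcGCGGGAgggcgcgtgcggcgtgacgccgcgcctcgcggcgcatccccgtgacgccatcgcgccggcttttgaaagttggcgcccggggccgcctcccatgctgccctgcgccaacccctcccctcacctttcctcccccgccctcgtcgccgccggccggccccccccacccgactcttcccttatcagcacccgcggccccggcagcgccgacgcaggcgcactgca
The windows lie at chr5:138280259-138280508 (plus strand), chr9:100643198-100643447 (plus strand) and chr8:105636288-105636537 (plus strand), and all 3 belong to starts inside the annotated gene spans. The E-box, searched on both strands (it reads the same on each), was present in the window of Stag3 and absent from the windows of the other 6 members found, and 6.02% of 32851 promoter windows of this length hold it. Among 11 meiotic cohesin and axis genes with a promoter in the table, Sycp1, Sycp3, Syce2 and Hormad1 also hold it in at least 1 window. The E2F-like string, searched on both strands and not overlapping the E-box, was found in Ctcf, Smc3, Stag1 and Pds5a and in 16.9% of all windows. A further search, for a shortened CTCF core motif on both strands, matched the window of Pds5b alone among the 7 and 7.17% of all windows. These are matches of letters, not measured binding sites. All 3 printed windows are rich in CG dinucleotides, with 26 in Stag3, 31 in Stag1 and 40 in Ctcf, against a median of 6 over all windows.

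Because degradation targets H2A.Z.1 protein, H2afz transcript counts are no check of the labels. The libraries were unequal. The controls held 14427884 to 16033011 counts and dTAG replicate 1 held 13214351, but dTAG replicates 2 and 3 held 2284068 and 2121183. These totals cover all features, while the percentages that follow are of counts over named genes. Olfactory and vomeronasal receptor genes, which stem cells do not use, took between 0.00459% and 0.00578% of each control's counts. They took 0.0155%, 0.239% and 0.811% of those of dTAG replicates 1, 2 and 3. Mitochondrial ribosomal RNA took 6.84% to 7.13%, 6.94%, 4.94% and 0.165% in the same order. The 10 stem cell markers were all present, with a summed level of 2861 to 2987 CPM in the Control libraries, against 3077, 1835 and 545.7 CPM with dTAG. Fibroblast markers summed to 38.1 to 53.2 CPM in the Control libraries, against 55.9, 157.6 and 453 CPM with dTAG. Markers of differentiated cells summed to 67.5 to 102.7 CPM and 97.85, 257.5 and 587 CPM. Of the fibroblast markers, Col3a1 was at 0 counts in all 3 controls and in dTAG replicate 1. The part of these differences in the results for cohesin genes was not tested. Levels are therefore given for each dTAG library, whereas the main fit and the share tests take all 3 dTAG libraries together. In bulk RNA, fewer cells that express a gene and less RNA of it per cell cannot be told apart.

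In dTAG replicate 1, the deep dTAG library, the 10 genes stood close to the controls, and in dTAG replicate 3 every one stood below all 3 controls. The summed level of the members was 1734 to 2045 CPM in the Control libraries, against 1865 CPM in dTAG replicate 1, inside that range. It was 1405 CPM in dTAG replicate 2 and 449.7 CPM in dTAG replicate 3. As a median over the members, the level was 95.7% of the control mean in dTAG replicate 1, 76.15% in replicate 2 and 27.1% in replicate 3. In dTAG replicate 2, 9 of 10 members were below all controls, where 22.4% of the 18116 genes tested were. In dTAG replicate 3 it was 10 of 10, again beside 22.4% of all genes tested. Each of the stem cell markers was also below all controls in CPM in both of these libraries. The genes tested include many at lower levels than the members, and the share among genes at the members' level was not computed.

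**Figure D1:**
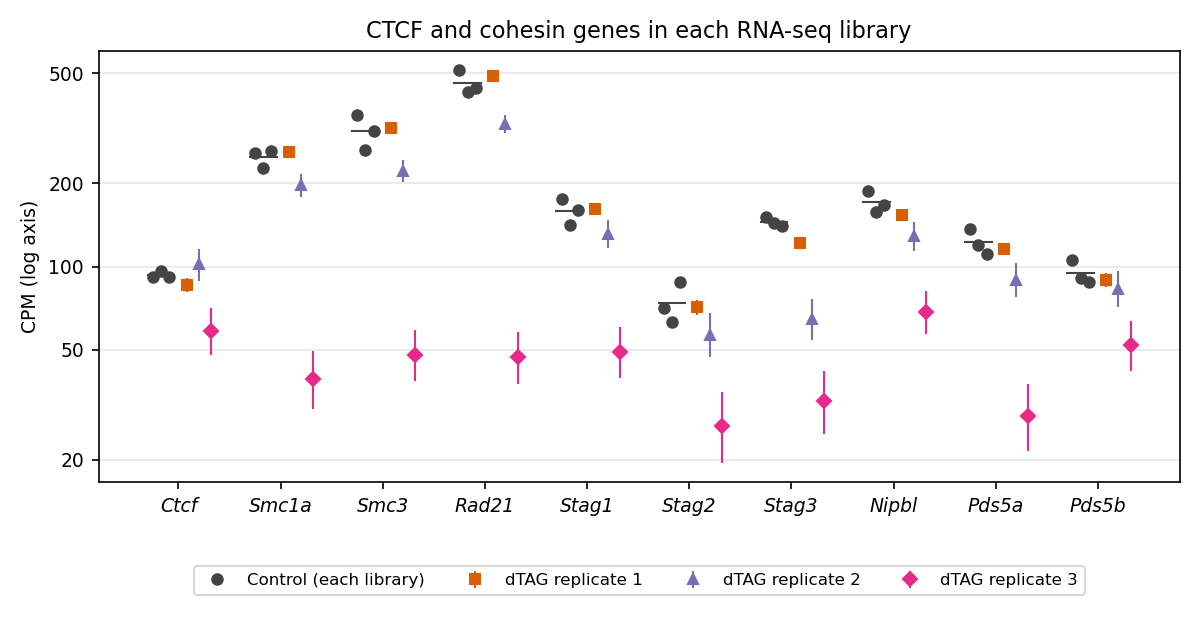
CPM of each gene (log axis) in the 3 control libraries (grey points, with a line at their mean) and the 3 dTAG libraries (coloured, with exact Poisson 95% intervals that cover counting error only). For every gene dTAG replicate 3 (diamonds) is the lowest library, from 26.5 CPM for Stag2 to 68.4 CPM for Nipbl.

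CTCF, the zinc finger protein that stops the sliding ring, gave the smallest spread among controls. Ctcf stood at 91.7, 96.5 and 92.0 CPM in control replicates 1, 2 and 3, against 85.6, 102 and 58.5 CPM with dTAG. In CPM the dTAG libraries lay on both sides of the controls, with replicate 2 above all 3 of them and replicates 1 and 3 below. With TMM scaling, which corrects library sizes for composition, all 3 were below, at 110.6, 82.5 and 23.5 against 116 to 133 in the controls. The coefficient of variation among controls was 2.91%, close to the 2.701% that counting alone gives at this depth, whereas for the other 9 members it was 4.28% to 17.0% with counting errors of 1.22% to 3.04%. Over all 6 libraries the log2 fold change of Ctcf was -0.76 (SE 0.60, adjusted p = 0.444 by the quasi-likelihood test of edgeR, adjusted after Benjamini and Hochberg over all genes tested). It was the smallest in size of the 10. The gene spans chromosome 8 from 105636474 to 105682922 (GRCm38.p6, the assembly behind mm10). The noncoding gene Gm5914 overlaps its first part, and whether counting used the strand is not given. Gm5914 had 0.958 to 5.25 CPM in the controls, 2.32 CPM in dTAG replicate 1, 21.1 CPM in replicate 2 and 62.4 CPM in replicate 3.

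Of the genes of the ring itself, Smc1a and Smc3 kept a similar ratio in each library, whereas Rad21 stood lower relative to both in dTAG replicate 3. Smc1a, on the X chromosome, stood at 258, 228 and 262 CPM in the Control libraries, against 259, 197 and 39.2 CPM with dTAG. Smc3, on chromosome 19, stood at 353, 264 and 310.0 CPM and at 317, 222 and 48.0 CPM. Rad21, on chromosome 15, which encodes the subunit that separase cuts to free sister chromatids, stood at 513, 429.6 and 443 CPM and at 490.1, 329 and 46.9 CPM. For all 3 genes dTAG replicate 1 lay inside the range of the controls, and replicates 2 and 3 lay below it. In dTAG replicate 3 Rad21 was at 10.2% of its control mean, Smc3 at 15.5% and Smc1a at 15.7%, the 3 lowest of the 10 members. The fitted log2 fold changes were -0.95 (SE 0.98) for Smc1a, -1.0 (SE 1.01) for Smc3 and -0.99 (SE 1.15) for Rad21, with edgeR adjusted p = 0.504, 0.499 and 0.540. Their standard errors were as large as the changes.

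Within each library, the counts of the ring arms kept nearly 1 ratio. Smc3 took 57.7%, 53.6% and 54.2% of Smc3 and Smc1a counts in the controls and 55.0%, 53.0% and 55.1% in dTAG replicates 1, 2 and 3. Such a share needs no scaling between libraries, although it depends on the lengths of the 2 transcripts and so says nothing of molecules per cell. The groups overlapped, and the difference of -0.834 percentage points had a two-sided exact permutation p = 0.8 (3 against 3, adjusted p = 0.8 over the 5 shares tested). In dTAG replicate 3 this share rested on 158 counts (Wilson 95% interval 47.3% to 62.6%, counting error only).

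The STAG genes differed from each other in how far the dTAG libraries lay from the controls, with Stag3 the lowest in dTAG replicates 1, 2 and 3 as a percentage of its control mean (84.2%, 44.7% and 22.45%). Stag1, on chromosome 9, stood at 176, 142 and 160.2 CPM in the Control libraries, against 161, 131 and 49.1 CPM with dTAG. Stag2, on the X chromosome, stood at 71.05, 63.1 and 87.8 CPM and at 71.3, 56.8 and 26.5 CPM. Both genes had dTAG replicate 1 inside the control range and the other dTAG libraries below it. Stag3 stood at 152, 143 and 139.8 CPM in the Control libraries, against 122, 64.7 and 32.55 CPM with dTAG. The groups did not overlap for Stag3: every dTAG library was below every control. This held for 2 of the 10 members, Stag3 and Nipbl, and for 3.22% of all genes tested. With TMM scaling it held for 5 members (Ctcf, Stag3, Nipbl, Pds5a and Pds5b) beside 10.4% of all genes tested.

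As a share of the 3 STAG genes' counts, Stag3 took 38.0%, 41.2% and 36.05% in the controls. It took 34.4% in dTAG replicate 1 (Wilson 95% interval 33.1% to 35.8%), 25.6% in replicate 2 (22.1% to 29.45%) and 30.1% in replicate 3 (24.1% to 36.9%). Stag1 took 44.2%, 40.7% and 41.3% in the controls and 45.45%, 51.95% and 45.4% in the dTAG libraries. The Stag3 share was lower in every dTAG library than in any control, and the Stag1 share was higher in every dTAG library than in any control. For both genes the Wilson intervals of dTAG replicates 1 and 3 overlapped that of a control. For Stag1 they were 44.0% to 46.9% and 38.6% to 52.4%, against 42.9% to 45.5% in control replicate 1. For Stag3, control replicate 3 had 34.8% to 37.3%. The shares come from the same pool of counts and are not separate results. How often other gene families part in this way was not computed. The mean Stag3 share was 38.4% ± 2.58 (SD, n = 3) in the controls and 30.05% ± 4.42 (SD, n = 3) in dTAG, a difference of -8.37 percentage points (two-sided exact permutation p = 0.1, adjusted p = 0.25). For Stag1 the difference was 5.54 percentage points (exact permutation p = 0.1, adjusted p = 0.25). An exact permutation test of 3 against 3 cannot go below p = 0.1, so neither could pass the threshold of 0.05. In dTAG replicate 1 alone the Stag3 share was 3.98 percentage points below the control mean, beside a control SD of 2.58. Stag2 took 17.8%, 18.1% and 22.6% of the counts in the controls and 20.1%, 22.45% and 24.5% in the dTAG libraries, and its groups overlapped (exact permutation p = 0.3).

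**Figure D2:**
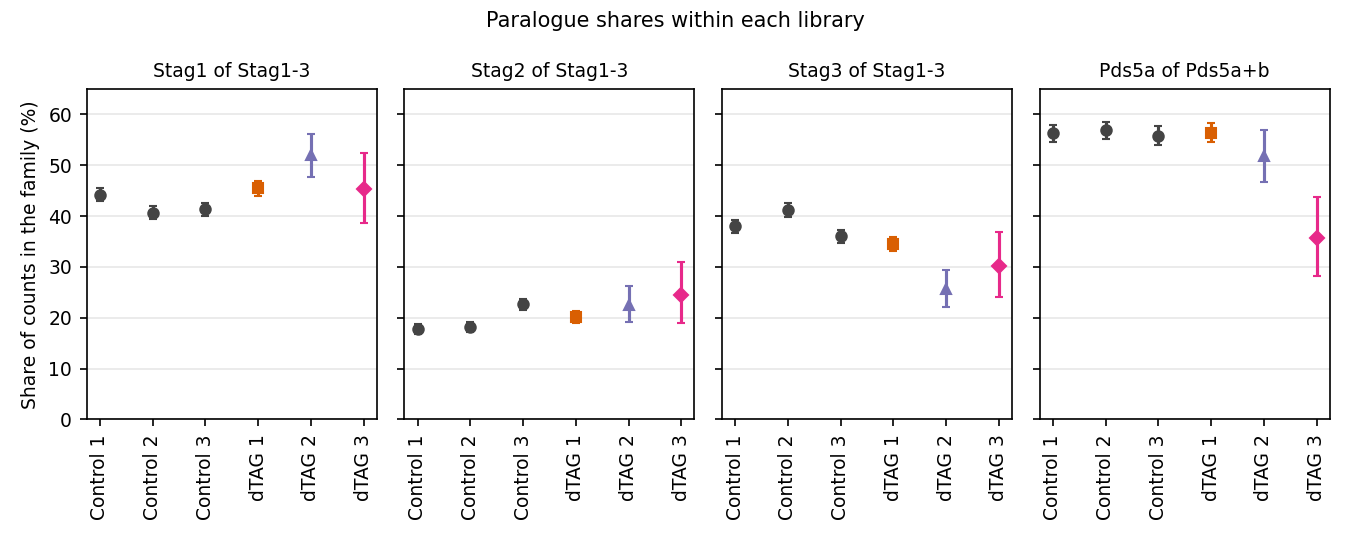
Share (%) of a family's counts taken by 1 gene in each library, with Wilson 95% intervals for counting error, for Stag1, Stag2 and Stag3 within the STAG family and Pds5a within the PDS5 pair. The 3 dTAG points for Stag3, from 25.6% to 34.4%, lie below the 3 control points, from 36.05% to 41.2%, and the Pds5a share leaves the control range in dTAG replicates 2 and 3.

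In the fit over all 6 libraries Stag3 had the largest change of the members, at -1.36 on the log2 scale (SE 0.82, edgeR adjusted p = 0.361). Stag1 and Stag2 had -0.91 (SE 0.80) and -0.97 (SE 0.69), with edgeR adjusted p = 0.471 and 0.414. In dTAG replicate 1 against the 3 controls Stag3 was again the lowest, at -0.33 (SE 0.14, unadjusted p = 0.0215, adjusted p = 0.706, edgeR). It did not pass the test in either fit. Stag3 spans chromosome 5 from 138272514 to 138312397 and overlaps Gpc2 and Gal3st4 at its upstream end. Gpc2 had 1.98 to 6.53 CPM in the Control libraries, against 1.24, 17.8 and 43.0 CPM with dTAG. Gal3st4 had 0 to 0.071 CPM in the Control libraries, against 0.387, 3.75 and 23.2 CPM with dTAG. Where exons overlap, reads of these neighbours could not be told from those of Stag3 if counting ignored the strand. Only whole gene spans were compared, and overlap of exons was not examined.

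NIPBL is the loader of the ring. Nipbl, on chromosome 15, stood at 188, 158 and 166.5 CPM in the Control libraries, against 153, 129 and 68.4 CPM with dTAG. All dTAG libraries were below all controls, in replicate 1 by a narrow margin. Its log2 fold change was -1.02 (SE 0.74, edgeR adjusted p = 0.420), and -0.24 (SE 0.13, adjusted p = 0.929) in dTAG replicate 1 against the controls. Mau2, which encodes the partner of NIPBL and was picked out after its values were seen, stood at 32.6, 24.85 and 23.5 CPM in the Control libraries, against 25.6, 42.2 and 78.9 CPM with dTAG. In dTAG replicate 3 Nipbl was below all controls with either scaling, whereas Mau2 was above all of them in CPM and below them with TMM scaling (31.7 against 32.0 to 41.4). Their log2 fold changes on the TMM scale were -0.06 for Mau2 and -1.02 for Nipbl, and the difference between them was not tested.

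The ratio of the PDS5 genes differed from the controls in dTAG replicate 3, a library with 146 counts for the pair. Pds5a stood at 136, 119.8 and 111 CPM in the Control libraries, against 116, 89.6 and 28.7 CPM with dTAG. Pds5b stood at 106, 90.9 and 87.7 CPM and at 89.7, 83.0 and 51.9 CPM. For both genes dTAG replicate 1 lay inside the control range in CPM and below it with TMM scaling, and replicates 2 and 3 lay below it with either. Both are on chromosome 5. The fitted log2 fold changes were -1.04 (SE 0.81, edgeR adjusted p = 0.439) for Pds5a and -0.86 (SE 0.62, edgeR adjusted p = 0.420) for Pds5b. Pds5a took 56.3%, 56.85% and 55.8% of the pair's counts in the controls, a narrow range, and 56.4%, 51.9% and 35.6% in dTAG replicates 1, 2 and 3. In dTAG replicate 3 the Wilson 95% interval was 28.3% to 43.7%, apart from that of any control. In replicate 2 it was 46.8% to 56.96%, overlapping those of the controls, and replicate 1 lay within the control range. The groups overlapped (difference -8.35 percentage points, two-sided exact permutation p = 0.3, adjusted p = 0.375). Without dTAG replicate 3 the difference was -2.17 percentage points.

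**Figure D3:**
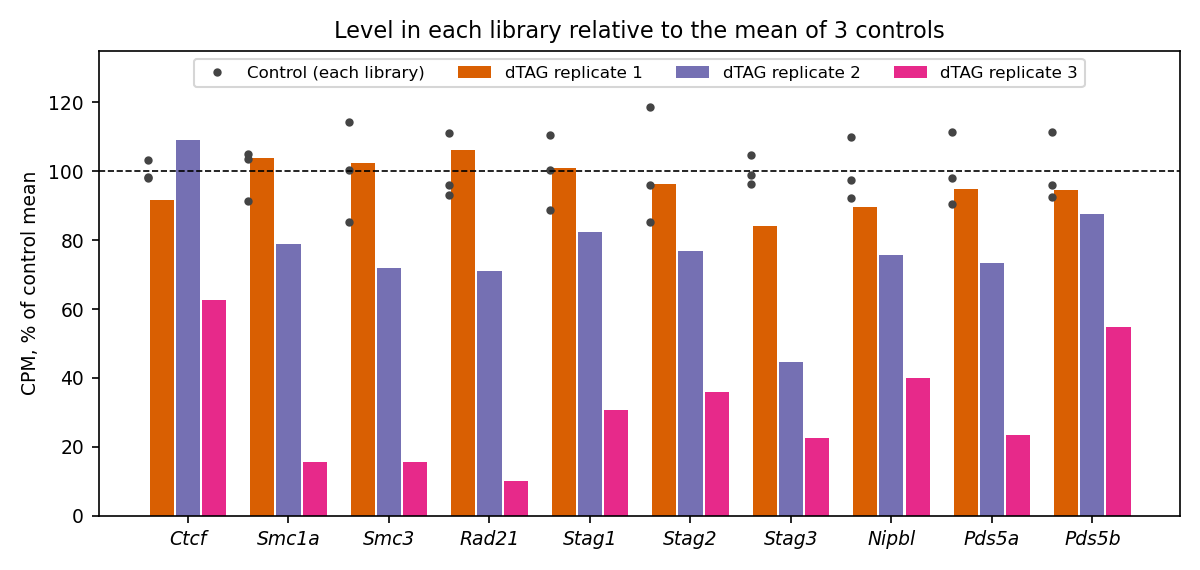
CPM of each gene in the dTAG libraries as a percentage of the mean of the 3 controls (bars), with each control as a grey point and a dashed line at 100%. In dTAG replicate 3 the bars run from 10.2% for Rad21 to 62.6% for Ctcf, while in replicate 1 they run from 84.2% for Stag3 to 106% for Rad21.

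In CPM the members lay closest together in dTAG replicate 3, and the same spread over all genes was not computed. The highest member stood 5.05 to 7.22 times above the lowest in the controls, 6.88 times in dTAG replicate 1 and 5.79 times in replicate 2. In dTAG replicate 3 it was 2.58 times. The pair was not the same in every library. It was Rad21 over Stag2, except for Rad21 over Pds5b in control replicate 3 and Nipbl over Stag2 in dTAG replicate 3. Transcript lengths do not cancel where the pair differs. The SD of log2 CPM over the 10 genes was 0.81 to 0.88 in the controls, 0.90 and 0.81 in dTAG replicates 1 and 2 and 0.45 in replicate 3. Of the members' summed counts, Rad21 took 23.8% to 25.1% in the controls and 10.4% in dTAG replicate 3. Ctcf took 4.48% to 5.57% in the controls and 13.0% in dTAG replicate 3, which rests on 106 of 815 counts. The ratio and the SD are of CPM and depend on transcript lengths, which were not used here. Levels per length were not ordered between genes.

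No member was called changed over all 6 libraries. By edgeR, 0 of the 10 were higher and 0 lower past the adjusted threshold of 0.05, and 0 had an unadjusted p under 0.05. Over all 18116 genes tested, the share called was 0% in each direction, with 4202 at an unadjusted p under 0.05, and limma-voom called 0. DESeq2 without the filter on low counts, over 25668 genes, called 5180 higher and 16 lower. Both of these tools also called 0 members. All 10 members passed the filter on low counts. All 10 had a fold change below 0, from -1.36 for Stag3 to -0.76 for Ctcf with a median of -0.98, against a median of 0.16 over all genes tested, of which 46.1% were below 0. The members' median was -0.47 without dTAG replicate 3 and -2.04 without dTAG replicate 1. With library totals in place of TMM scaling the median of all genes moved to 1.20 and that of the members to -0.53, and all 10 remained below 0. Without dTAG replicate 1, edgeR called 4 members lower: Stag3 (-2.74, adjusted p = 0.0143), Stag2 (-1.99, adjusted p = 0.0246), Pds5a (-2.12, adjusted p = 0.0424) and Pds5b (-1.69, adjusted p = 0.0446). That fit, whose dTAG group is replicates 2 and 3, called 19.8% of all genes lower and 40.0% higher.

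In dTAG replicate 1 against the 3 controls, no member was called. The log2 fold changes ran from -0.33 for Stag3 to 0.00422 for Rad21, with standard errors of 0.0985 to 0.18, and edgeR adjusted p was 0.706 to 0.999. At an unadjusted p under 0.05 there was 1 member, Stag3. Of all genes tested in this fit, 0.0606% were called higher and 0.0276% lower. The median of the members was -0.15, against -0.02 over all genes. Below all 3 controls in CPM were Ctcf, Stag3 and Nipbl, 3 of 10, beside 16.9% of all genes tested, and no member was above all 3. This fit takes the spread of the controls for the single dTAG library.

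**Figure D4:**
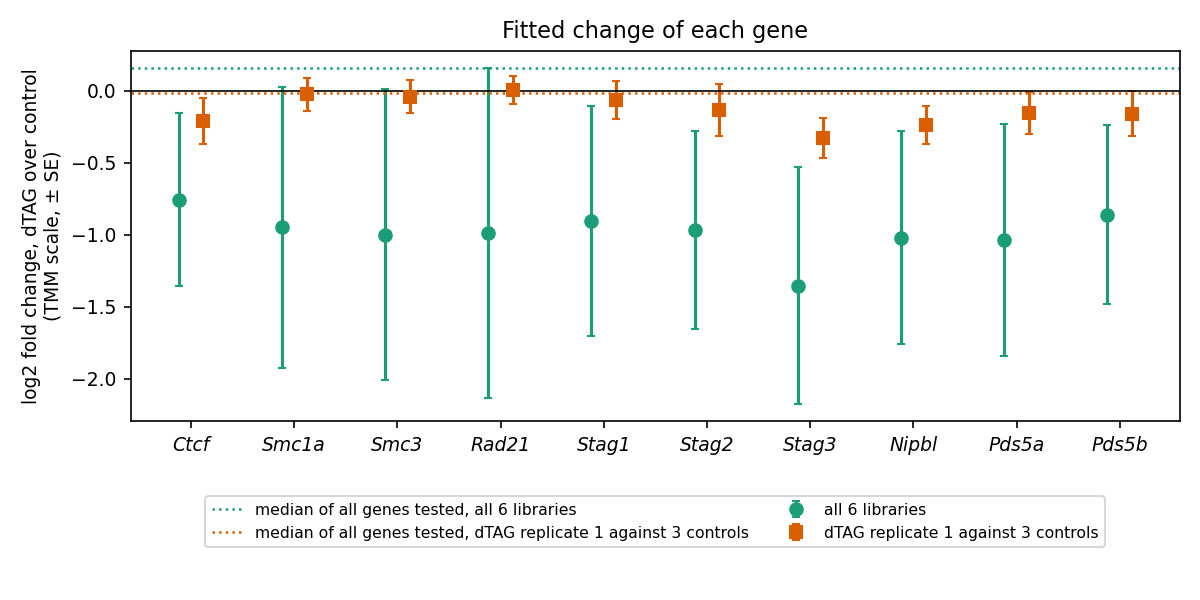
Log2 fold change of each gene, dTAG over control, on the TMM scale with its standard error, over all 6 libraries (circles) and for dTAG replicate 1 against the 3 controls (squares), with dotted lines at the median of all genes tested in each fit. Stag3 is the lowest in both fits, at -1.36 and -0.33, and no gene passed the test in either.

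Regulators of the cohesin cycle, 15 genes for its acetylation, release, protection and cleavage, had 0 called in either direction (edgeR, median log2 fold change -0.48 against 0.16 over all genes). Wapl, which encodes the factor that opens the ring, stood at 261, 263 and 237 CPM in the Control libraries, against 278, 197.5 and 51.3 CPM with dTAG. Sgo2a, a shugoshin that protects centromeric cohesin, stood at 216, 181 and 194 CPM and 207, 121 and 22.1 CPM. Both were lower in dTAG replicates 2 and 3 than in any control, as were 22.4% of all genes tested in each of these libraries. The share of all genes lower in both libraries was not computed. Espl1, which encodes separase, stood at 82.1, 61.5 and 70.75 CPM in the Control libraries, against 75.1, 91.0 and 119 CPM with dTAG. Esco2, an acetyltransferase for SMC3, stood at 67.3, 59.5 and 55.9 CPM and 67.6, 54.0 and 36.4 CPM. On the TMM scale 14 of the 15 were below 0, but with library totals alone 9 were above 0, so no direction is given for this list.

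STAG3 works with other meiotic proteins. Of 13 meiotic cohesin and axis genes 12 were tested and 0 were called (edgeR, median -0.09, with 2 at an unadjusted p under 0.05). Syce1, a protein of the synaptonemal complex, stood at 43.6, 58.1 and 40.7 CPM in the Control libraries, against 45.5, 35.2 and 14.9 CPM with dTAG. Rec8, the meiotic counterpart of Rad21, stood at 29.3, 25.8 and 22.9 CPM and 25.2, 30.5 and 30.4 CPM. Syce2, another synaptonemal protein, stood at 30.5, 23.2 and 24.8 CPM and 22.3, 39.4 and 71.7 CPM, and Sycp1 at 12.4, 13.0 and 21.4 CPM and 23.2, 33.3 and 20.4 CPM. Among these 4, Syce1 was lower in dTAG replicates 2 and 3 than in any control, as were 22.4% of all genes tested in each library. Syce2 was higher there in CPM only, since with TMM scaling it stood at 31.95 and 28.85 against 31.9 to 38.7 in the controls. Further genes were picked out as counterparts of the members after their values were seen. Smc1b, counterpart of Smc1a, had 10.7 to 15.3 CPM in the Control libraries, against 21.5, 11.3 and 28.1 CPM with dTAG. Rad21l, a second counterpart of Rad21, had 3, 0 and 0 counts in the controls and 4, 11 and 15 counts in dTAG replicates 1, 2 and 3, and did not pass the filter on low counts. Ctcfl, the germline paralogue of Ctcf, had 2.27 to 6.18 CPM in the Control libraries, against 5.04, 31.4 and 52.4 CPM with dTAG, and was not called (log2 fold change 1.94, SE 0.67, edgeR adjusted p = 0.135). With library totals alone 10 of the 12 were above 0, against 5 with TMM, so the list has no fixed direction.

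The other SMC complexes, condensin and SMC5/6, compact or repair chromosomes. Of 16 genes, those of these complexes and the related SMC gene Smchd1, 0 were called (edgeR, median -0.88). All 16 were below 0 with TMM scaling but 12 of 16 with library totals. Smc4 stood at 271, 195 and 215 CPM in the Control libraries, against 258.5, 165 and 38.1 CPM with dTAG, and Smc2, the other condensin arm, at 214, 172 and 174 CPM and 193, 139.8 and 23.2 CPM. Smc6 stood at 219.5, 192 and 174 CPM and 202, 142 and 39.2 CPM, and Ncapd2, a condensin I subunit, at 230.2, 203 and 209 CPM and 201, 197 and 82.2 CPM. These 4 genes, the most abundant of the list, had both shallow dTAG libraries below every control. In each of these libraries 22.4% of all genes tested were below every control in CPM. Not all of the list went this way. Ncaph2 stood at 129.9 and 172.1 CPM in dTAG replicates 2 and 3 against 81.7 to 89.8 in the controls. With TMM scaling it stood at 105.3 and 69.25 against 104.4 to 122.3. CTCF partners and loop factors, 9 genes, had 0 called (edgeR, median -0.44), with 8 below 0 with TMM scaling and 3 with library totals. Parp1 stood at 293.5, 253 and 245 CPM in the Control libraries, against 299, 193 and 70.6 CPM with dTAG, and Chd8, a remodeller that binds CTCF, at 132, 131 and 128 CPM and 128, 103 and 91.0 CPM. Yy1, a zinc finger factor at enhancer and promoter loops, stood at 73.6, 64.6 and 59.0 CPM and 67.9, 94.3 and 141 CPM, and Ldb1 at 62.6, 59.0 and 55.7 CPM and 65.2, 86.3 and 99.9 CPM. Parp1 and Chd8 were thus lower in dTAG replicates 2 and 3 than in any control, again beside 22.4% of all genes tested in each library. Yy1 and Ldb1 were higher there in CPM, but the order turned with TMM scaling, which put Yy1 at 76.4 and 56.6 against 80.3 to 93.3 in the controls and Ldb1 at 69.97 and 40.2 against 75.9 to 81.1.

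Likeness was sought among 8291 other genes whose control mean reached 10 CPM, without names of Gm or LOC with digits or ending in Rik. Those most like Ctcf in the shape of their log2(CPM + 1) over the 6 libraries were Skil, Pecam1 and Sap30bp. Their Euclidean distances were 0.141, 0.17 and 0.183 against a median of 1.38. Skil stood at 108, 109.5 and 106 CPM in the Control libraries, against 109, 116 and 70.6 CPM with dTAG. Those most like Stag3 were Mapk6, Sec61b and Ndufs6, at 0.219, 0.234 and 0.24 against a median of 2.26. Mapk6 stood at 251, 199 and 200.5 CPM and 190.3, 90.5 and 49.1 CPM. Among the members the nearest to Ctcf was Pds5b, 186th in that order at a distance of 0.389, and the nearest to Stag3 was Pds5a, 274th at 0.636. Libraries differ most in dTAG replicates 2 and 3, and how much each library adds to the distances was not computed.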

How the data were processed

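For 3 Control and 3 dTAG RNA-seq libraries the authors deposited raw gene counts, without normalization, in 1 table of 27179 features. Per the submitters' processing notes, STAR 2.7.2b, featureCounts, edgeR and limma were used with build mm10; their roles, the annotation and the strand setting are not stated there. Samples were grouped by title, and columns were matched to titles. The 903 features with no name were left out. They held 2.20% to 2.37% of counts in the controls and 2.33%, 6.67% and 14.6% in dTAG replicates 1, 2 and 3. Tests ran in R 4.3.3 with edgeR 4.0.16's quasi-likelihood functions (glmQLFit, glmQLFTest; design of group alone, TMM, filterByExpr with a minimum count of 10 and total of 15, Benjamini-Hochberg over 18116 genes, threshold 0.05). A standard error is the fold change divided by the root of F. The fit was also run on simulated counts with an equal dispersion in every library, far smaller than the 0.424 fitted here. That run does not show how the fit behaves on these libraries. TMM factors were 0.727 to 0.789 in the controls and 0.774, 1.23 and 2.49 in dTAG replicates 1, 2 and 3. Poisson and Wilson 95% intervals cover counting error only. Alternatives used DESeq2 1.42.0, voom in limma 3.58.1, other scalings, filters and sets of libraries. Named genes are the members, the 4 most abundant of each other list (none passed the test), and the 3 genes nearest to Ctcf and Stag3; others are said to be picked after their values were seen. Members and lists were chosen with earlier results of these data known.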

Additional observations from a re-analysis of the deposited data

How the results depend on the processing

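Over 13 alternatives the members' log2 fold changes kept their sign in 129 of 130 values; the exception was Rad21 in dTAG replicate 1 against the controls (0.00422). The alternatives called 0 members, apart from the fit without dTAG replicate 1, which called 4 lower. For members called lower, leaving out 1 library gave 0 to 4, and for members called higher 0 in each case. Over all genes, leaving out 1 library gave 0 to 8839 called higher and 0 to 4383 called lower, the highest counts without dTAG replicate 1. Called higher were 1398 with no filter on low counts, 5180 with DESeq2 without that filter, 13 with the replicate block and 11 in dTAG replicate 1 against the controls; called lower were 16 with DESeq2 without the filter and 5 with dTAG replicate 1 as the only treated library. DESeq2 without the filter called 1 other pathway gene higher (Rad21l, which the filter leaves untested), and leaving out 1 library gave 0 to 2 higher (Rad21l and Ctcfl without dTAG replicate 1) and 0 to 20 lower. The cause was not tested.

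The replicate block rests on a shared number only, and with the block 0 members were called. Deviations of same-numbered libraries from their group means had correlations of 0.0433, -0.0286 and 0.0391 for numbers 1, 2 and 3. These values cannot show whether libraries were paired, since the dTAG libraries differ widely among themselves. The Stag3 share of STAG counts differed from the controls by -10.6 to -6.15 percentage points on leaving out 1 library, and the Stag1 share by 3.37 to 6.64. The Smc3 share was 0.431 percentage points above the controls without control replicate 1, with a range of -1.615 to 0.431 on leaving out 1 library. The Pds5a share differed by 0.0927 in dTAG replicate 1 against the controls. Shares per coding length were not run, because no coding lengths were used here. Counts of 48 to 124 per member in dTAG replicate 3 limit its precision.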

Other observations

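Germ cell markers were present beside Stag3 in these stem cells, as values chosen after they were seen. Stra8, which gates entry into meiosis, stood at 380.1, 364.6 and 394.5 CPM in the Control libraries, against 364, 264 and 21.5 CPM with dTAG. Dazl, an RNA-binding protein of germ cells, stood at 74.9, 94.4 and 83.2 CPM in the Control libraries, against 84.1, 57.7 and 20.4 CPM with dTAG. Ddx4, a germ cell helicase, stood at 48.1, 59.4 and 43.4 CPM and at 50.1, 82.1 and 13.8 CPM. Dmrt1, a transcription factor of the testis, had 38.4 to 41.4 CPM in the controls and 32.3, 34.7 and 30.35 CPM with dTAG. Other members of the list were higher in dTAG replicate 3 in CPM. Spo11, which makes the DNA breaks of meiosis, had 0.447 to 1.76 CPM in the controls and 1.47, 5.63 and 31.45 CPM with dTAG, and Dmc1, which repairs them, 10.1 to 12.2 CPM and 5.89, 10.3 and 20.97 CPM. Piwil1 had 0.383 to 2.06 CPM and 1.395, 32.4 and 105.9 CPM, and Tdrd1 3.64 to 6.11 CPM and 4.88, 23.5 and 72.8 CPM, both genes of the piRNA pathway. Tex101 had 2.18 to 2.49 CPM and 2.63, 7.04 and 11.0 CPM, and Mael 4.98 to 8.94 CPM and 7.98, 10.3 and 17.7 CPM. With TMM scaling Dmc1 and Mael did not stand above the controls in dTAG replicate 3, at 8.43 and 7.10. The 10 germ cell markers summed to 573 to 587 CPM in the controls and to 555, 528 and 346 CPM with dTAG.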
